A study of Mus musculus with 6 samples.

Results

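The genes examined are the 10 that encode the subunits of the hypoxia-inducible factors (HIFs) and the proteins that tie those subunits to oxygen: the alpha subunits *Hif1a*, *Epas1* and *Hif3a*, the beta subunits *Arnt* and *Arnt2*, the prolyl hydroxylases *Egln1*, *Egln2* and *Egln3*, the asparaginyl hydroxylase *Hif1an*, and *Vhl*. They were picked by symbol from the 54532 genes of the deposited count table, and all 10 were among the 19372 genes with enough counts to be tested. Poly A RNA was sequenced from 3 *Smyd1-KO* and 3 WT mouse hearts at E9.5, with RNA extracted from individual embryonic hearts. *Smyd1-KO* embryos are homozygous for a null allele of *Smyd1*, which encodes a methyltransferase of heart and skeletal muscle, in a line obtained from the Jackson Laboratory, and WT embryos carry no mutant allele. Embryos of both sexes were used, no treatment was given, and no allele or agent is listed beyond the *Smyd1* genotype. The allele is a germline mutation and not one driven by Cre, so that every cell of the embryo carries it. The library is the whole heart, in which fewer cells of a type and less RNA per cell cannot be told apart. The shallowest library, *Smyd1-KO* heart 1, held 48627825 counts and the deepest, WT heart 3, held 64217529.

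HIFs are heterodimers of an oxygen-labile alpha subunit and a stable beta subunit. When oxygen is present, the EGLN enzymes hydroxylate prolines of the alpha subunit, VHL binds the hydroxylated protein and targets it for degradation, and HIF1AN hydroxylates an asparagine that otherwise contacts a coactivator. In low oxygen the alpha subunit persists, joins ARNT and binds DNA, and *Egln1* and *Egln3* are themselves textbook HIF targets. The embryonic heart forms in low oxygen, and HIF1A is required for its normal development. The protein steps of this pathway are not visible in RNA, and the values below are transcript levels.

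The targeted gene was read first. *Smyd1* was at a CPM (counts scaled to the library's total and edgeR's TMM factor) of 101, 222 and 206 in *Smyd1-KO* hearts 1, 2 and 3, and of 414, 379 and 270 in WT hearts 1, 2 and 3. Every *Smyd1-KO* heart lay below every WT heart, and transcripts of the gene were still counted in all 3 *Smyd1-KO* hearts. Which exons the allele removes is not given in the sources used here. The log2 fold change was -1.01 (95% interval -1.71 to -0.30), and it did not pass the test by edgeR (adjusted *P*=0.0973) but did by DESeq2 (adjusted *P*=0.00534).

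The label of the tissue was set against its markers. The 12 cardiomyocyte markers, of which *Actc1* was the most abundant, were all counted in every heart, and 0 of them were called by edgeR (2 had an unadjusted *P* under 0.05, and DESeq2 called 1). Their summed level was 9530, 19700 and 19800 CPM in the *Smyd1-KO* hearts and 21400, 19200 and 12300 CPM in the WT hearts. *Smyd1-KO* heart 1 stood apart, with the lowest cardiomyocyte sum and the lowest erythroid sum of the 6 hearts. WT heart 3 had the next lowest cardiomyocyte sum, well below those of the remaining hearts, but its erythroid sum was not low. The 12 erythroid markers, all counted in every heart and led by *Hba-x*, summed to 40.5, 302 and 179 CPM in the *Smyd1-KO* hearts and 775, 1040 and 991 CPM in the WT hearts. Of these 3 fell by edgeR, *Gata1* and *Alas2* among them (11 had an unadjusted *P* under 0.05, and DESeq2 called 9), and the median log2 fold change of the 12 was -2.34. That count of 3 was 10 without *Smyd1-KO* heart 1, 1 without WT heart 1, and 0 without *Smyd1-KO* heart 3, WT heart 2 or WT heart 3. The macrophage markers *Ptprc*, *Adgre1* and *Tyrobp* were at 0 in at least 1 heart, and that list summed to between 4.59 and 8.56 CPM (4 of 7 tested, 0 called by edgeR or DESeq2, 1 with an unadjusted *P* under 0.05). Of 12 endothelial and endocardial markers *Sox17* rose (log2 fold change 1.24), a call that was lost without *Smyd1-KO* heart 2 or WT heart 3, and 7 had an unadjusted *P* under 0.05. The number called by DESeq2 was 4. *Nfatc1* (-0.83) and *Npr3* (-0.52), known from the endocardium, did not pass edgeR's test and were called lower by DESeq2, and 4 of the 12 log2 fold changes were negative. EdgeR called 0 of 7 epicardial markers (2 with an unadjusted *P* under 0.05, 2 called by DESeq2), which summed to 141, 205 and 266 CPM in the *Smyd1-KO* hearts and 122, 107 and 129 CPM in the WT hearts. It also called 0 of 6 smooth muscle markers (2 with an unadjusted *P* under 0.05, 1 called by DESeq2). All 7 epicardial log2 fold changes were positive (median 0.47), and all 6 of smooth muscle were negative (median -0.42). Beside these counts, edgeR called 4.28% of all tested genes and gave 25.1% an unadjusted *P* under 0.05, and DESeq2 called 9.29% of those it tested.

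Of the 10 genes, 4 passed edgeR's quasi-likelihood test, that is, had an adjusted *P* below 0.05 and a log2 fold change of 0.5 or more in size. *Egln3*, *Egln1* and *Hif3a* were higher in *Smyd1-KO* hearts and *Hif1a* was lower. Among all tested genes 4.28% were called, 2.86% as higher and 1.42% as lower. The 3 *Smyd1-KO* and the 3 WT hearts did not overlap for 7 of the 10 genes, as was the case for 31.3% of all tested genes. The 3 genes whose hearts overlapped were *Arnt2*, *Egln2* and *Hif1an*. An unadjusted *P* under 0.05 was found for the same number, 7, beside 25.1% of all tested genes. DESeq2 called 5 of the 10 genes, beside 9.29% of the genes it tested. The median log2 fold change of the 10 genes was 0.30, beside -0.00 over all tested genes. Without *Smyd1-KO* heart 1, the heart that stood apart, 4 of the 10 genes were called, and without WT heart 2 or WT heart 3 it was 2.

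**Figure D1:**
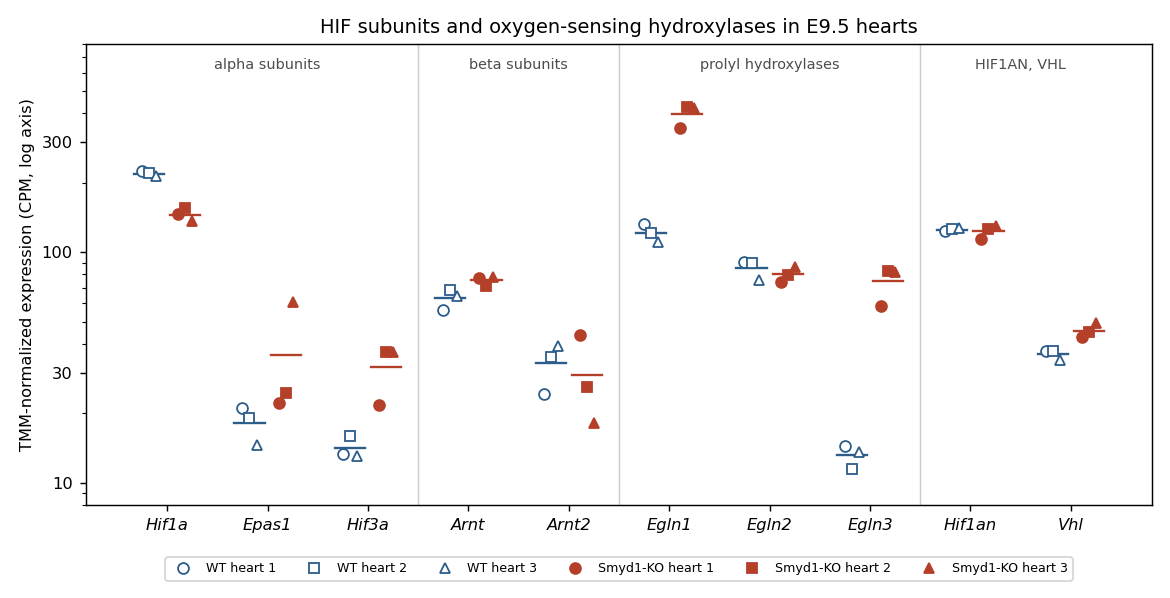
TMM-normalized expression (CPM, log axis) of the 10 genes in each heart, with open blue symbols for WT, filled red symbols for *Smyd1-KO*, a shape for each heart number and a horizontal line at each group's mean. *Egln1* and *Egln3* are the genes with the widest gaps between the groups, *Hif1a* is lower in all 3 *Smyd1-KO* hearts, and *Smyd1-KO* heart 3 lies far above the other 5 hearts for *Epas1*.

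The promoters of the 4 called genes are shown first, because *Egln1* and *Egln3* are known HIF targets and HIF binds a short core sequence, which is ACGTG or GCGTG. The 250 bases before each gene's RefSeq start site (GRCm38.p6) were searched on both strands for these letters. Capitals mark every match, and a match on the opposite strand appears as CACGT or CACGC. The *Egln1* window is at chr8:124949305-124949504 (minus strand) and stops 51 bases before the RefSeq start, because the GENCODE annotation starts the first exon further upstream. The last 20 of the printed bases, which hold the ACGTG match, lie in that exon. The *Egln3* window is at chr12:54203875-54204124 (minus strand), the *Hif3a* window at chr7:17062428-17062677 (minus strand) and the *Hif1a* window at chr12:73907617-73907866 (plus strand). The last of these lies inside the GENCODE gene, which also has a start further upstream, and touches none of its exons.
Egln1: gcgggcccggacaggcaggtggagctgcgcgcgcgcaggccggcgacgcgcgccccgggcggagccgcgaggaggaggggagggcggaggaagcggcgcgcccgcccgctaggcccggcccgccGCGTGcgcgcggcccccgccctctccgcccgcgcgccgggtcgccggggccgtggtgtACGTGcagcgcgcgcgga
Egln3: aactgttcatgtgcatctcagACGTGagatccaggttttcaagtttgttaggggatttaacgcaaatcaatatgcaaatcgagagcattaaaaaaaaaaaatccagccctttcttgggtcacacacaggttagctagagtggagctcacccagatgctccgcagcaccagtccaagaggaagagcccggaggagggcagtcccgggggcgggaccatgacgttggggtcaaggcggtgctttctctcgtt
Hif3a: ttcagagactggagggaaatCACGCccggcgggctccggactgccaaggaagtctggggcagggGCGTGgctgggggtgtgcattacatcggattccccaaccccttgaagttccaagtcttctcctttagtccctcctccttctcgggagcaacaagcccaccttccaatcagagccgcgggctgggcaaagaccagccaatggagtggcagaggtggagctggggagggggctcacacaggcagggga
Hif1a: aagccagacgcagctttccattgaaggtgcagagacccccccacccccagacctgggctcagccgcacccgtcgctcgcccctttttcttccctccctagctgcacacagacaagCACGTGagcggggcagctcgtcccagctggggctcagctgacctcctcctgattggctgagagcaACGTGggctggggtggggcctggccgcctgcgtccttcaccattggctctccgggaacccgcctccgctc

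In the *Egln1* window the letters ACGTG begin 68 bases before the RefSeq start, inside the GENCODE exon, and GCGTG begins 126 bases before it. The *Egln3* window holds a single match, ACGTG, 229 bases before its start. The *Hif3a* window holds GCGTG at 186 bases and, on the opposite strand, at 230 bases. In the *Hif1a* window ACGTG begins 70 bases before the start and again at 134 bases, where it overlaps a match on the opposite strand within CACGTG. Across the 9 genes with an entry in the sequence table, which exclude *Epas1* and give *Egln2* 2 windows, 7 of 10 windows held ACGTG or GCGTG and 4 held ACGTG. The windows of *Arnt2*, *Hif1an* and *Vhl* held neither. Of all 32851 promoter windows 38.6% held either motif and 16.6% held ACGTG, and of the 15929 windows of tested genes 52.9% and 20.6% did. A match is only a run of letters, and binding at these windows was not examined here.

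Among the alpha subunits, *Hif1a* fell and *Hif3a* rose, and *Epas1* did not pass the test. *Hif1a* (ENSMUSG00000021109, chr12:73901375-73947530 in GRCm38) encodes the most widely expressed alpha subunit. Its level was 146, 155 and 136 CPM in the *Smyd1-KO* hearts, in the order of their numbers as throughout, and 224, 221 and 214 CPM in the WT hearts. The highest *Smyd1-KO* heart was far below the lowest WT heart, and the hearts within a genotype lay close together. The means were 145 ± 9.32 and 219 ± 5.22 CPM (SD, n = 3), a level 33.7% lower in *Smyd1-KO* hearts. The log2 fold change was -0.59 (SE 0.0804, 95% interval -0.78 to -0.41, adjusted *P*=0.0123 by edgeR), not far past the fold limit. *Hif1a* was lower in every fit that left out a heart, at -0.64 to -0.55, and lost the call without WT heart 2 (adjusted *P*=0.0795 by edgeR) and without WT heart 3 (0.0615). Its interval reaches inside the fold limit, and it was not called by glmTreat, which tests for a change beyond that limit (adjusted *P*=0.654).

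The annotation places an antisense gene, *Gm15283* (ENSMUSG00000087700), across the whole *Hif1a* locus at chr12:73843039-73949814, and 330 bases of its exons overlap those of *Hif1a*. It is named here after its values were seen. Its level was 5.70, 8.29 and 7.92 CPM in the *Smyd1-KO* hearts and 1.06, 1.69 and 1.62 CPM in the WT hearts. The hearts did not overlap, and the direction was opposite to that of *Hif1a* (log2 fold change 2.32, SE 0.257, adjusted *P*=0.00661 by edgeR). The sources used here do not state whether the counting used strand, and without strand the reads of the shared bases cannot be told apart. The *Gm15283* counts were 63 to 490 per heart and those of *Hif1a* 7087 to 14238. Neither measures the reads of the shared bases, whose part in the *Hif1a* value was not tested.

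*Hif3a* (ENSMUSG00000004328, chr7:17031507-17062427) encodes the alpha subunit whose splice forms include inhibitors of the other two. It was at 21.8, 36.9 and 37.0 CPM in the *Smyd1-KO* hearts and at 13.3, 15.9 and 13.0 CPM in the WT hearts. *Smyd1-KO* heart 1 lay nearest to the WT hearts but above all of them. The level was 2.26-fold higher in *Smyd1-KO* hearts (log2 fold change 1.18, SE 0.215, 95% interval 0.67 to 1.68, adjusted *P*=0.0288 by edgeR). The fold stayed positive without any one heart, at 1.06 to 1.39 on the log2 scale. The call, however, was kept only without *Smyd1-KO* heart 1 (adjusted *P*=0.0024 by edgeR). It was lost without *Smyd1-KO* heart 2 (0.0903), *Smyd1-KO* heart 3 (0.0743), WT heart 1 (0.0808), WT heart 2 (0.107) or WT heart 3 (0.115). GlmTreat did not call it either (adjusted *P*=0.162). Gene counts do not separate its splice forms.

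*Epas1* (ENSMUSG00000024140, chr17:86753700-86833410) encodes HIF2A, the alpha subunit known best from endothelial cells. Its level was 22.1, 24.4 and 60.9 CPM in the *Smyd1-KO* hearts and 21.0, 19.1 and 14.5 CPM in the WT hearts. The groups did not overlap, but *Smyd1-KO* hearts 1 and 2 lay just above WT heart 1 and *Smyd1-KO* heart 3 stood far above the other 5 hearts. The log2 fold change was 0.98 (SE 0.388, 95% interval 0.07 to 1.89), with an adjusted *P*=0.174 by edgeR. It was 0.35 (adjusted *P*=0.308 by edgeR) without *Smyd1-KO* heart 3. DESeq2 gave an adjusted *P*=0.0369 with all 6 hearts. *Smyd1-KO* heart 3 also had the highest summed level of the 12 endothelial and endocardial markers, at 741, 883 and 1120 CPM in the *Smyd1-KO* hearts and 797, 854 and 705 CPM in the WT hearts, all of them counted in every heart and *Kdr* the most abundant. *Smyd1-KO* heart 3 was the highest of the 6 hearts for 10 of the 12 markers, among them *Tek* at 152 CPM against 71.0 to 94.8 CPM in the other hearts. The exceptions were *Npr3* and *Nfatc1*, which were lower in all *Smyd1-KO* hearts than in any WT heart. Their part in the *Epas1* value was not tested.

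The changes moved the make-up of the alpha subunit transcripts, compared per kilobase of exon (RPKM). *Hif1a* made up 77.5%, 72.6% and 58.4% of the summed RPKM of the 3 alpha subunits in *Smyd1-KO* hearts and 86.9%, 86.6% and 88.9% in WT hearts. *Hif3a* made up 10.2%, 15.3% and 14.0% in *Smyd1-KO* hearts and 4.55%, 5.49% and 4.75% in WT hearts. The *Epas1* share was 12.4%, 12.1% and 27.6% against 8.57%, 7.93% and 6.37%. *Smyd1-KO* heart 3 weighed on these differences in mean share. Without it the difference was 4.62 points in place of 9.74 for *Epas1*, and -12.4 in place of -17.9 for *Hif1a*. None of the 3 shares overlapped between the genotypes, so that *Hif1a* remained the most abundant alpha transcript in all 6 hearts with a smaller margin in the *Smyd1-KO* hearts. The summed RPKM was 31.9, 36.1 and 39.5 in *Smyd1-KO* hearts and 43.7, 43.2 and 40.8 in WT hearts, also without overlap. The exact two-sided permutation *P* was 0.1 for each of these shares and for the sum, the smallest that 3 hearts against 3 can give.

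**Figure D2:**
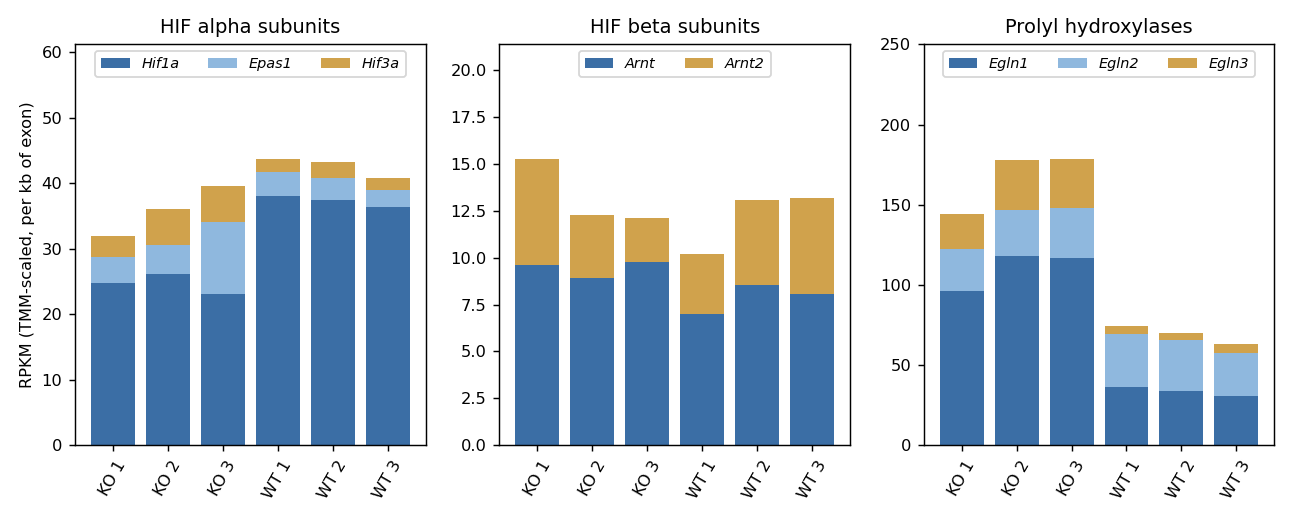
Level per kilobase of exon (RPKM, linear axes from 0, a separate scale in each panel) of the alpha subunits, beta subunits and prolyl hydroxylases, stacked for each of the 6 hearts. The alpha stack holds less *Hif1a* in *Smyd1-KO* hearts, the beta stacks overlap between genotypes, and the prolyl hydroxylase stack reaches 144 to 179 RPKM in *Smyd1-KO* hearts against 62.9 to 74.5 in WT hearts.

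The beta subunits did not pass the test. *Arnt* (ENSMUSG00000015522, chr3:95434388-95497240) encodes the general partner of the alpha subunits and of the aryl hydrocarbon receptor. It was at 77.0, 71.5 and 78.3 CPM in the *Smyd1-KO* hearts and at 56.0, 68.5 and 64.4 CPM in the WT hearts. The lowest *Smyd1-KO* heart was only slightly above the highest WT heart. The log2 fold change was 0.26 (95% interval 0.04 to 0.48, adjusted *P*=0.137 by edgeR), so that a change as large as that of *Hif1a* in size lay outside its interval.

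*Arnt2* (ENSMUSG00000015709, chr7:84246278-84410176), a paralog best known from the nervous system, varied more within a genotype than between them. Its level was 43.5, 25.9 and 18.2 CPM in the *Smyd1-KO* hearts and 24.3, 35.0 and 39.3 CPM in the WT hearts. The groups overlapped, and both the highest and the lowest heart were *Smyd1-KO*. The log2 fold change was -0.17 (95% interval -0.92 to 0.58, adjusted *P*=0.781 by edgeR), and its sign turned without *Smyd1-KO* heart 3 (0.08). Within each genotype the order of the hearts was the reverse of their order in the cardiomyocyte marker sum, and whether the marker content had a part in it was not tested. *Arnt* made up 63.0%, 72.6% and 80.5% of the summed beta RPKM in *Smyd1-KO* hearts and 68.9%, 65.3% and 61.2% in WT hearts (exact two-sided permutation *P*=0.3). The summed beta RPKM overlapped as well (exact permutation *P*=0.6).

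The prolyl hydroxylases held the 2 largest changes of the 10 genes, and the remaining member, *Egln2*, did not pass the test. *Egln1* (ENSMUSG00000031987, chr8:124908587-124949324) encodes PHD2, the main enzyme that sets HIF1A stability. Its level was 345, 425 and 421 CPM in the *Smyd1-KO* hearts and 132, 121 and 111 CPM in the WT hearts. The lowest *Smyd1-KO* heart, heart 1, was still far above every WT heart. The means were 397 ± 45.5 and 121 ± 10.3 CPM (SD, n = 3), and the level was 3.28-fold higher in *Smyd1-KO* hearts (log2 fold change 1.71, SE 0.118, 95% interval 1.44 to 1.99, adjusted *P*=0.000996 by edgeR). *Egln1* was called in each of 15 alternative analyses, and it was between 1.66 and 1.81 on the log2 scale when a heart was left out.

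*Egln3* (ENSMUSG00000035105, chr12:54178981-54203860) encodes PHD3, the prolyl hydroxylase with the strongest known induction by low oxygen. It was at 58.5, 83.2 and 82.4 CPM in the *Smyd1-KO* hearts and at 14.4, 11.5 and 13.6 CPM in the WT hearts. As for *Egln1* and *Hif3a*, *Smyd1-KO* heart 1 was the lowest of its genotype and *Smyd1-KO* hearts 2 and 3 were nearly equal. The level was 5.68-fold higher in *Smyd1-KO* hearts (log2 fold change 2.51, SE 0.164, 95% interval 2.12 to 2.89, adjusted *P*=0.000869 by edgeR). It was called in all 15 alternatives, at 2.42 to 2.65 on the log2 scale when a heart was left out.

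*Egln2* (ENSMUSG00000058709, chr7:27158658-27166802) encodes PHD1, which is not induced by low oxygen in most cells. Its level was 74.1, 79.8 and 86.6 CPM in the *Smyd1-KO* hearts and 90.9, 89.8 and 75.6 CPM in the WT hearts. The groups overlapped, and the log2 fold change was -0.09 (95% interval -0.33 to 0.14, adjusted *P*=0.615 by edgeR). The interval leaves no room for a change of the size seen in *Egln1* or *Egln3*.

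Per kilobase of exon, the 3 enzymes summed to 144, 178 and 179 RPKM in *Smyd1-KO* hearts and to 74.5, 70.0 and 62.9 RPKM in WT hearts. By summed exon length *Egln1* and *Egln2* were close to each other in WT hearts, at 49.2%, 48.0% and 49.0% of the sum for *Egln1* and 43.6%, 45.8% and 42.9% for *Egln2*. In *Smyd1-KO* hearts *Egln1* took 66.4%, 66.5% and 65.5% and *Egln2* 18.3%, 16.0% and 17.3%. The *Egln3* share was 15.2%, 17.5% and 17.3% in *Smyd1-KO* hearts and 7.24%, 6.18% and 8.11% in WT hearts. These shares varied little within a genotype and did not overlap between the genotypes (exact two-sided permutation *P*=0.1 for each, the smallest possible). The summed prolyl hydroxylase RPKM was 4.52, 4.93 and 4.54 times the summed alpha subunit RPKM in *Smyd1-KO* hearts and 1.70, 1.62 and 1.54 times in WT hearts. *Smyd1-KO* heart 1, with the lowest level of both families among the *Smyd1-KO* hearts, did not differ from the others in this ratio by more than their spread.

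*Hif1an* (ENSMUSG00000036450, chr19:44562850-44576274) encodes factor inhibiting HIF, which blocks the transactivation domain of the alpha subunits. It was at 114, 126 and 130 CPM in the *Smyd1-KO* hearts and at 124, 126 and 127 CPM in the WT hearts. The groups overlapped, and *Smyd1-KO* heart 1 was the lowest of the 6. Its log2 fold change was -0.03 (95% interval -0.21 to 0.15, adjusted *P*=0.856 by edgeR), and the sign turned without *Smyd1-KO* heart 1 (0.03).

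*Vhl* (ENSMUSG00000033933, chr6:113623959-113631633) encodes the subunit of an E3 ubiquitin ligase that recognizes the hydroxylated alpha subunits. Its level was 42.7, 45.1 and 49.1 CPM in the *Smyd1-KO* hearts and 37.1, 37.4 and 33.9 CPM in the WT hearts. All *Smyd1-KO* hearts lay above all WT hearts by a small margin. The log2 fold change was 0.34 (SE 0.0887, 95% interval 0.13 to 0.55), which did not pass the test (adjusted *P*=0.0715 by edgeR). DESeq2 gave an adjusted *P*=0.0358, with a fold change below the limit.

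**Figure D3:**
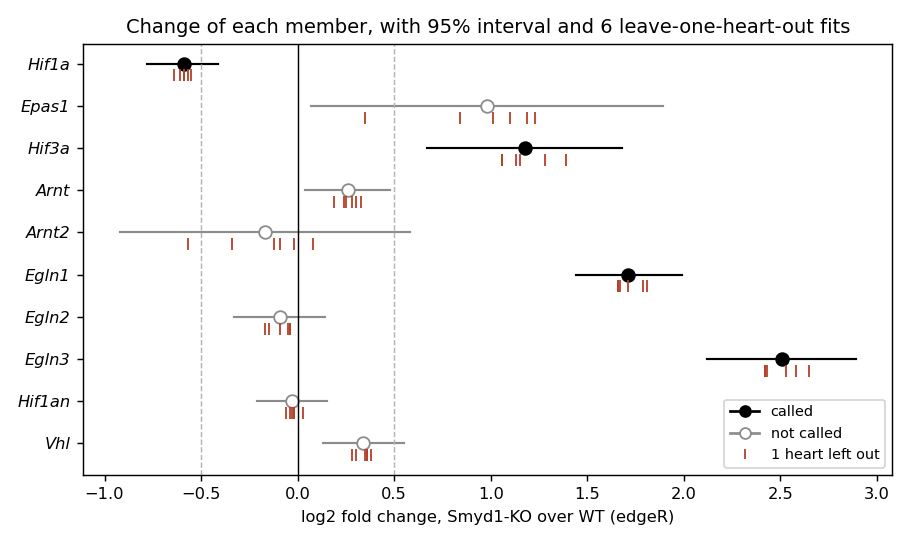
Log2 fold change of each gene, *Smyd1-KO* over WT, from edgeR. Circles are the estimates from all 6 hearts with their 95% intervals, filled where the gene was called, red ticks are the 6 fits that leave out a heart, and dashed lines mark the fold limit of 0.5. *Egln3* and *Egln1* stand at 2.51 and 1.71 with tight ticks, and the *Epas1* ticks spread from 0.35 to 1.23.

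Set in order per kilobase of exon, the transcripts ranked differently in the 2 genotypes. In WT hearts *Hif1a* was first at 37.2 ± 0.885 RPKM (SD, n = 3), followed by *Egln1* at 33.7 ± 2.88 and *Egln2* at 30.5 ± 3.06. *Egln1* was below *Hif1a* in each WT heart, at 0.963, 0.898 and 0.851 of its RPKM, and above *Egln2* in each, at 1.13, 1.05 and 1.14 times its RPKM, although these neighbors lay within about their spread. After *Hif1an* (19.0), *Vhl* (12.1) and *Arnt* (7.87) came *Egln3* (4.94), *Arnt2* (4.27) and *Epas1* (3.26), whose neighbors again lay within about their spread, and *Hif3a* was last at 2.10 RPKM. The order of close neighbors depends on the length used. Divided by the longest transcript in place of the summed exons, a choice added after the data were seen, *Egln2* (40.5 ± 4.05 per kilobase) was above *Egln1* (33.8 ± 2.92) in every WT heart. By their means alone *Arnt* (14.6) was above *Vhl* (12.9) and *Arnt2* (5.28) above *Egln3* (4.95), and WT heart 1 had the opposite order for both pairs. *Hif1a* stayed first and *Hif3a* last by this length.

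In *Smyd1-KO* hearts *Egln1* was first at 110 ± 12.6 RPKM (SD, n = 3). *Egln2* (28.6 ± 2.23), *Egln3* (28.1 ± 5.26) and *Hif1a* (24.7 ± 1.58) followed. *Egln2* was above *Hif1a* in every *Smyd1-KO* heart, at 26.5, 28.5 and 30.9 against 24.7, 26.2 and 23.1 RPKM. The *Egln3* mean lay within its spread of both. *Egln3* stood at 0.83, 1.10 and 1.0 times the *Egln2* RPKM, so that this pair had no order. With the longest transcript as the length, *Egln2* was above *Egln3* in every *Smyd1-KO* heart, at 35.2, 37.9 and 41.1 against 22.0, 31.3 and 31.0 per kilobase, *Hif1a* (30.8) was above the *Egln3* mean (28.1), *Arnt* (17.5) was above *Vhl* (16.3), and *Egln1* was still first. *Hif1an* (18.6), *Vhl* (15.2) and *Arnt* (9.44) came between, and *Epas1* (6.41 ± 3.90), *Hif3a* (4.75 ± 1.31) and *Arnt2* (3.80 ± 1.69) could not be ordered within their spread. *Egln1* transcripts stood at 3.88, 4.51 and 5.08 times the *Hif1a* RPKM in *Smyd1-KO* hearts.

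The plot of levels by heart sets the 10 genes beside the marker lists. *Smyd1-KO* heart 1 was the least changed of its genotype for *Egln1*, *Egln3* and *Hif3a*, while *Smyd1-KO* heart 3 was the most changed for *Hif1a* and *Epas1*. The erythroid markers moved with the genotype, as did the 4 called genes, and their part in those values was not tested. Leaving haemoglobin and mitochondrially encoded genes out of the table left 4 of the 10 genes called. That step left the counts of every other gene as they were. It therefore cannot show what part the blood content had in the called genes.

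**Figure D4:**
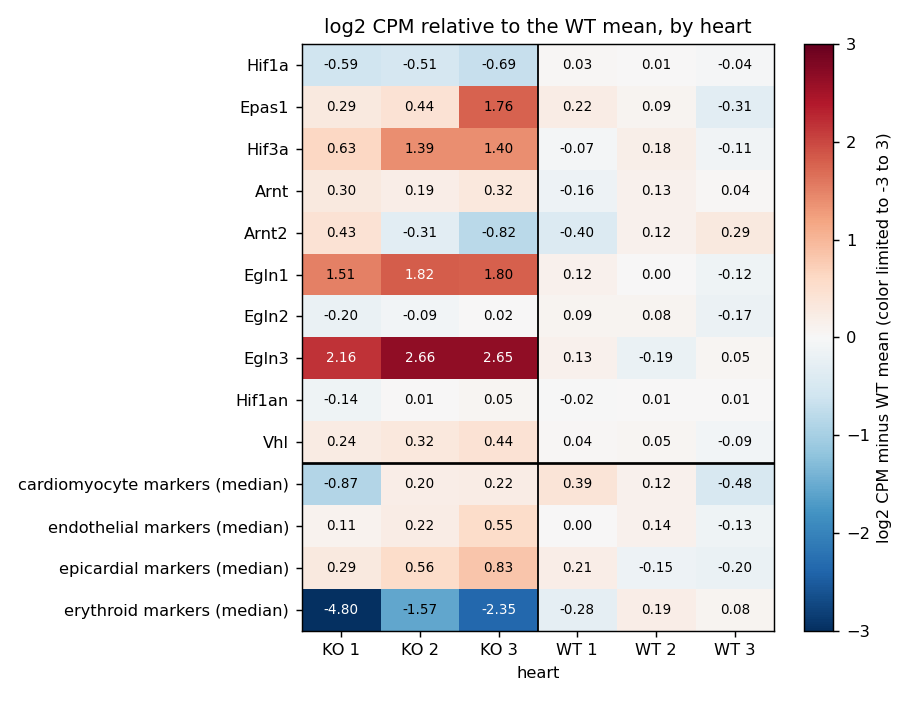
Log2 CPM of each gene minus its mean in the WT hearts, by heart, with the medians of 4 marker lists below the line. Red is higher and blue lower than the WT mean, with the color limited at 3 and the value printed in each cell. *Egln3* reads 2.16, 2.66 and 2.65 in the *Smyd1-KO* hearts, and the erythroid median reads -4.80, -1.57 and -2.35.

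The pathway around the 10 genes was read from lists of genes by role, beginning with the HIF targets. Of 53 target genes, all tested, edgeR called 45 as higher and 0 as lower, 84.9% of the list, beside 2.86% called as higher among all tested genes. The median log2 fold change was 1.25, and 52 of the 53 were positive. DESeq2 called 48, among them the exception, *Pfkfb4*, as lower. The count was 20 without WT heart 2, 24 without WT heart 3 and 40 without WT heart 1, and 46, 31 and 35 without *Smyd1-KO* hearts 1, 2 and 3. GlmTreat, which tests against the fold limit, called 27. These are known HIF targets from textbook knowledge, listed with earlier results of these data in view, so that their direction is not independent evidence. Of their RefSeq promoter windows, 58 windows for 39 of the genes, 81.0% held ACGTG or GCGTG and 39.7% held ACGTG. Among the windows of all tested genes these shares were 52.9% and 20.6%. Some genes have several windows, the base composition of these sets was not compared, and the difference was not tested.

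In glucose uptake and use, 16 of 19 genes rose, with a median log2 fold change of 0.85. This count was 8 and 9 without *Smyd1-KO* hearts 2 and 3, 5 without WT heart 3 and 4 without WT heart 2, the last being *Slc2a3*, *Hk2*, *Pfkfb3* and *Aldoc*. *Aldoc*, an aldolase, was at 26.9, 35.1 and 43.7 CPM in the *Smyd1-KO* hearts and 9.48, 9.37 and 6.53 CPM in the WT hearts (log2 fold change 2.06). *Slc2a3*, a glucose transporter, was at 1840, 1670 and 1950 CPM against 514, 483 and 604 CPM (1.77). *Pfkfb3*, whose product drives glycolysis through fructose 2,6-bisphosphate, was at 228, 208 and 219 CPM against 66.3, 68.8 and 74.5 CPM (1.64). In each of these genes the lowest *Smyd1-KO* heart lay well above the highest WT heart. *Slc2a1* (1.37), *Pdk1* (1.33), whose product limits pyruvate oxidation, and *Pfkp* (1.29) also rose. *Hk1* (0.39), *Eno1* (0.68) and *Pfkfb4* (-0.51) did not pass edgeR's test, and DESeq2 called *Eno1* higher (adjusted *P*=0.00231) and *Pfkfb4* lower (adjusted *P*=0.032).

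The stress, mitochondrial and pH targets held the largest changes, with 17 of 19 genes higher and a median log2 fold change of 1.90. The count was 11 without WT heart 2 and 13 to 18 when another heart was left out. *Ndufa4l2*, which encodes a protein that lowers complex I activity, was at 34.0, 50.4 and 45.8 CPM in the *Smyd1-KO* hearts and 2.11, 2.13 and 2.04 CPM in the WT hearts (log2 fold change 4.37). *Ndrg1* was at 53.5, 57.1 and 117 CPM against 5.98, 4.52 and 5.60 CPM (3.82), with *Smyd1-KO* heart 3 highest. *Ddit4*, an mTORC1 inhibitor, was at 607, 540 and 518 CPM against 76.0, 63.2 and 70.9 CPM (2.99). The *Smyd1-KO* hearts were many times higher than the WT hearts in all of these genes. *Stc2* (2.98), the transcriptional repressor *Bhlhe40* (2.84) and the carbonic anhydrase *Car9* (2.36) followed, and *Tfrc* (0.50) and *Car12* (1.11) did not pass edgeR's test, of which DESeq2 called *Car12*.

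All 8 genes of matrix and chromatin oxygenases and lysyl oxidases rose, with a median log2 fold change of 1.42, of which 5 were called without WT heart 2 or WT heart 3. They were led by *Lox* (2.86), a collagen cross-linking oxidase at only 4.26, 4.92 and 9.65 CPM in the *Smyd1-KO* hearts and 1.12, 0.457 and 1.01 CPM in the WT hearts. *P4ha2* (2.37), *P4ha1* (1.59) and *Plod2* (1.57) encode collagen hydroxylases that use the same cosubstrate as the EGLN enzymes, and *Kdm3a* (1.26) a histone demethylase. Of 7 vascular and secreted targets 4 rose, a count that was 0 without WT heart 2, 1 without WT heart 3, and 2 without WT heart 1 or *Smyd1-KO* heart 2. These were *Epo* (2.06), at no more than 5.37 CPM in any heart, *Adm* (1.62), *Vegfa* (1.44) and *Flt1* (1.15), while *Edn1* (0.11) and *Angptl4* (0.04) were among those that did not pass the test.

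**Figure D5:**
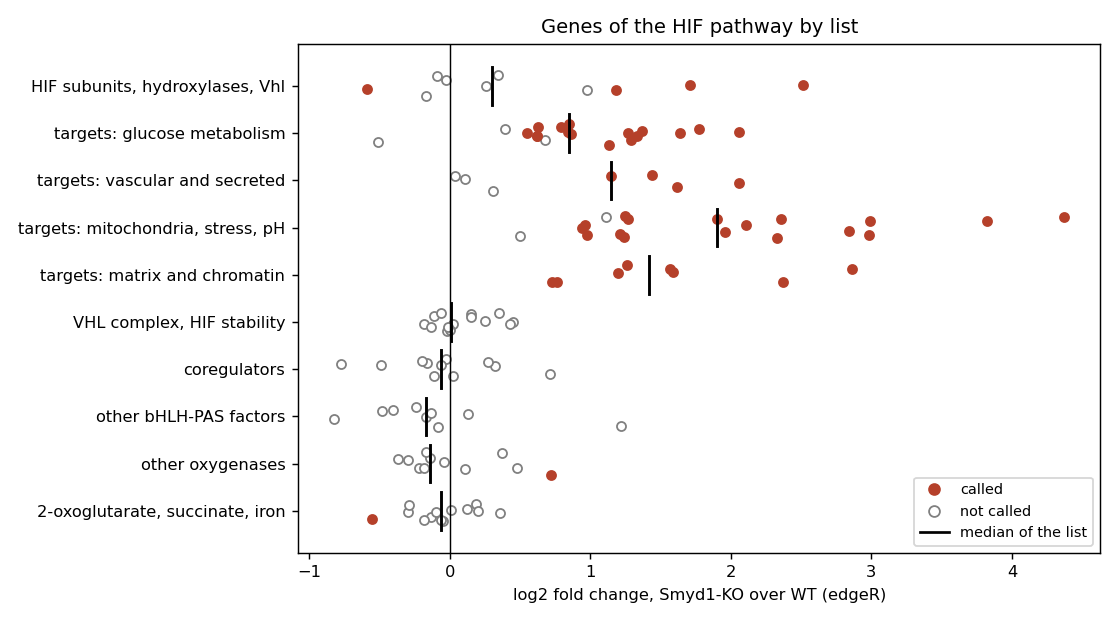
Log2 fold change (*Smyd1-KO* over WT, edgeR) of every tested gene of the 10 HIF genes and of 9 lists around them, with called genes in red and the median of each list as a black line. The 4 target lists lie to the right of 0 with medians from 0.85 to 1.90, and the medians of the other 5 lists lie between -0.17 and 0.01.

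The partners and regulators of the HIF proteins were read next, in short lists for which a count of 0 is near the 4.28% called among all tested genes. Their difference from the targets was not tested. Among 14 genes of the VHL ligase and of HIF stability, edgeR called 0, with a median log2 fold change of 0.01 (3 had an unadjusted *P* under 0.05, and DESeq2 called 0). The elongin genes *Elob* (0.02) and *Eloc* (-0.11), *Cul2* (-0.06) and *Rbx1* (-0.02), which form the ligase with VHL, were all near 0. *Rack1*, whose product promotes HIF1A degradation without oxygen sensing, was at 1440, 1380 and 1220 CPM in the *Smyd1-KO* hearts and 1120, 931 and 954 CPM in the WT hearts. Its hearts did not overlap, but its log2 fold change of 0.43 did not pass the test (adjusted *P*=0.0756 by edgeR). *Siah2* (0.45), a ligase for the prolyl hydroxylases, did not pass it either.

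Among 11 coregulators edgeR called 0 genes, with a median log2 fold change of -0.06 (2 had an unadjusted *P* under 0.05, and DESeq2 called 0). Without *Smyd1-KO* heart 1 the count was 2, *Ncoa1* and *Cited1*. The log2 fold changes of the coactivators *Ep300* and *Crebbp* were -0.11 and -0.03 and that of their competitor *Cited2* was -0.16. Its paralogs lay further out, *Cited1* at 0.71 and *Cited4* at -0.77, and neither passed the test with all 6 hearts. *Cited4* was at 5.22, 12.7 and 10.6 CPM in the *Smyd1-KO* hearts and 16.2, 19.4 and 13.0 CPM in the WT hearts, without overlap. Of the other bHLH-PAS factors, 9 of 11 could be tested and edgeR called 0 (1 had an unadjusted *P* under 0.05, and DESeq2 called 1). That gene was *Npas3*, at 2.88, 2.15 and 1.58 CPM in the *Smyd1-KO* hearts and 0.789, 1.04 and 1.01 CPM in the WT hearts (log2 fold change 1.22, adjusted *P*=0.0524 by edgeR). *Sim1* and *Sim2*, which had a heart with 0 counts, were too low in most hearts to be tested. *Sim1* was at 2.37 CPM in *Smyd1-KO* heart 1, the heart that stood apart, and at 0.15 CPM or less in every other heart.

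Of 11 other oxygenases 1 rose, *Asph*, an aspartyl hydroxylase that also encodes junctin of the calcium store. It was at 176, 190 and 204 CPM in the *Smyd1-KO* hearts and 117, 116 and 113 CPM in the WT hearts (log2 fold change 0.72, adjusted *P*=0.00664 by edgeR), without overlap, and lost the call without WT heart 2 (adjusted *P*=0.0544). *Jmjd6* had an adjusted *P*=0.0303 by edgeR at a log2 fold change of 0.48, under the fold limit. The median of the list was -0.14, and 5 of the 11 had an unadjusted *P* under 0.05, beside 25.1% of all tested genes. The hearts did not overlap for 8 of the 11, with 3 higher and 5 lower in *Smyd1-KO* hearts, beside 31.3% of all tested genes. In 13 genes of 2-oxoglutarate, succinate, fumarate and iron handling, which set the cosubstrates and inhibitors of these enzymes, 1 fell. An unadjusted *P* under 0.05 was found for 3 of the 13. *Ogdh*, of the 2-oxoglutarate dehydrogenase complex, was at 167, 208 and 197 CPM in the *Smyd1-KO* hearts and 287, 302 and 245 CPM in the WT hearts (log2 fold change -0.55, adjusted *P*=0.0468 by edgeR). Its call was lost whichever of the 6 hearts was left out, with adjusted *P* values of 0.0567 to 0.181 by edgeR. The succinate dehydrogenase genes *Sdha*, *Sdhb*, *Sdhc* and *Sdhd* and the fumarase gene *Fh1* lay between -0.13 and 0.19.

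The genes most like each called member were found by the distance of their log2 CPM, relative to the WT mean, over the 6 hearts among 13049 genes whose log2 CPM averaged 1 or more. For *Hif1a* they were *Ndufaf4*, a complex I assembly factor (distance 0.0748), *Akirin1* (0.106) and *Klc2* (0.114). *Ndufaf4* was at 30.9, 32.0 and 27.6 CPM in the *Smyd1-KO* hearts and 47.5, 44.3 and 45.0 CPM in the WT hearts. For *Hif3a* they were *H2-Q4* (0.172), *Ddit3* (0.219), a stress-induced transcription factor, and *Pck2* (0.225). *Pck2*, a mitochondrial enzyme, was at 36.5, 65.8 and 60.2 CPM in the *Smyd1-KO* hearts and 23.2, 23.6 and 21.3 CPM in the WT hearts. Its *Smyd1-KO* heart 1 was also the nearest to WT, which follows from its choice by likeness to *Hif3a*.

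For *Egln1* the nearest were the phosphodiesterase gene *Pde4b* (0.316), *Sdc4* (0.318), which encodes a syndecan, and *Robo4* (0.319), an endothelial receptor gene. *Pde4b* was at 33.8, 39.4 and 45.0 CPM in the *Smyd1-KO* hearts and 10.9, 11.2 and 11.7 CPM in the WT hearts. For *Egln3* they were *Vldlr* (0.298), a lipoprotein receptor gene, *H2-K1* (0.470) and *Ankrd37* (0.481), of which the last is in the target lists. *Vldlr* was at 91.3, 128 and 143 CPM in the *Smyd1-KO* hearts and 20.2, 21.0 and 21.6 CPM in the WT hearts. The reads of *H2-Q4* and *H2-K1* can be shared with near-identical genes of their family, and their values are uncertain for that reason.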

How the data were processed

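The authors made paired-end libraries from oligo-dT selected RNA and used STAR for alignment to mm10. The raw counts per gene are deposited as whole numbers, 1 column per heart, and the counting tool, annotation release and strand setting are not given in the sources used here. A deposited copy of the counts rescaled by DESeq2 size factors was not used. Positions and exon lengths were taken from GENCODE, in which 54495 of the 54532 gene IDs were found, and promoter windows from RefSeq (GRCm38.p6).

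The genotypes were compared by edgeR 4.0.16 in R 4.3.3 (filterByExpr, TMM, quasi-likelihood test, Benjamini-Hochberg adjustment over 19372 genes). A gene was called when its adjusted *P* was below 0.05 and its log2 fold change 0.5 or more in size. CPM and RPKM carry the TMM factors, log2 CPM a prior count of 2, and the SE is the log2 fold change divided by the square root of the F statistic. The biological coefficient of variation was 22.5%. Family shares were compared by exact permutation over hearts, tables were summarized with pandas 2.3.3 and plots drawn with matplotlib 3.10.9. Alternatives were DESeq2 1.42.0, RLE and upper-quartile scaling, other filters and thresholds, glmTreat, a block for the replicate number, and fits without each heart. The script was tested on simulated data. Per the labels, RNA was extracted from individual hearts. A legend of the paper gives a larger number of replicates than these libraries, and another, for the reads of *Smyd1*, gives the same number. Any further replicates were not analysed here. No molecular identifiers are named.

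The 10 genes and all lists were chosen with earlier results of these data known. Named are the 10 genes, the targeted gene, up to 6 called genes per list by fold, genes whose role is needed, and the 3 genes nearest to each called member. When a symbol had several IDs, the lowest was used. Some genes of the lists are counted but not reported by name here.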

Additional observations from a re-analysis of the deposited data

How the results depend on the processing

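The shallowest heart held 48627825 counts, each genotype has 3 hearts, and the strand setting is not known. Each gene was tested under 15 alternatives. The alternative with no limit on the fold change keeps the main fit, so that a called gene cannot lose its call there. *Egln1* and *Egln3* kept their direction and their call in all of them, and the 4 called genes kept their direction in all. With glmTreat, which tests for a change beyond 0.5 on the log2 scale, the call of *Hif1a* (-0.59, adjusted *P*=0.654 by glmTreat) and that of *Hif3a* (1.18, adjusted *P*=0.162) were lost, and 2 of the 10 genes, 27 HIF targets, 0 other oxygenases, 0 genes of cosubstrate handling, 0 endothelial and 0 erythroid markers and 154 genes in all were called. DESeq2 called *Epas1* (0.98) and *Smyd1* (-1.0, adjusted *P*=0.00534 by DESeq2), 1749 genes in all, and 1 bHLH-PAS factor, 1 cardiomyocyte, 4 endothelial, 9 erythroid, 2 epicardial and 1 smooth muscle marker. With no filter on low counts these marker counts were 1, 4, 8, 2 and 1, and *Npas3* was called (1 gene), as it was when at least 10 counts were asked in every heart (1 gene). With no limit on the fold change 2 other oxygenases were called.

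When each heart was left out in turn, *Hif1a* stayed between -0.64 and -0.55 and *Hif3a* between 1.06 and 1.39. *Arnt2* ranged from -0.57 to 0.08 and *Hif1an* from -0.06 to 0.03, the signs turning without *Smyd1-KO* heart 3 (*Arnt2*, 0.08) and *Smyd1-KO* heart 1 (*Hif1an*, 0.03). Between 97 genes (without WT heart 2) and 1256 genes (without *Smyd1-KO* heart 1) were called in all, 2 to 4 of the 10 genes, and 20 to 46 HIF targets. The other counts were 0 to 2 coregulators, 0 to 2 other oxygenases, 0 in cosubstrate handling, and 0 to 2 cardiomyocyte, 0 to 3 endothelial, 0 to 10 erythroid, 0 to 3 epicardial and 0 to 1 smooth muscle markers. The cause of these shifts was not tested.

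Hearts of the same number are different embryos. The deviations of same-numbered hearts from their genotype's mean had correlations of -0.216, -0.0538 and -0.182. For hearts of different number they lay between -0.156 and 0.286. With 3 hearts per genotype, these values give no sign of pairing by number but cannot decide whether the numbers stand for a shared litter or batch. With the number as a block, 59 genes were called, among them 2 of the 10 genes, 15 HIF targets, 0 other oxygenases, 0 genes of cosubstrate handling, 0 endothelial and 0 erythroid markers. *Egln1* and *Egln3* kept their call with the block, and *Hif1a* (-0.60, adjusted *P*=0.0950 by edgeR) and *Hif3a* (1.14, 0.101) did not. Family shares kept their direction with the longest transcript as length and with no division by length.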
